A study of Mus musculus with 6 samples.

Results

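The nuclear genes that encode subunits of the oxidative phosphorylation machinery were examined in nuclei from rd10 mouse retinas that had received interleukin-27 (IL-27) or saline. Members were chosen by symbol, as every gene whose name begins with Nduf (without the Ndufaf assembly factors), Uqcr, Atp5, Cox4, Cox5, Cox6, Cox7 or Cox8, together with Sdha, Sdhb, Sdhc, Sdhd and Cyc1, and 1 symbol ending in -ps was left out. This gave 86 of the 32285 genes in the count matrices, of which 36 belong to complex I, 4 to complex II, 9 to complex III, 20 to complex IV and 17 to complex V. Ndufa4 was counted with complex IV, where its product sits, and its relative Ndufa4l2 was grouped with it.

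All 6 libraries came from retinas of the strain B6.CXB1-Pde6b-rd10/J, which carries the rd10 missense mutation in the rod phosphodiesterase gene Pde6b and loses its rods and later its cones. Eyes were injected into the vitreous at postnatal day 18 with 20 ng of recombinant IL-27 or with saline, and retinas were collected and flash frozen at postnatal day 20. Nuclei were isolated from the frozen tissue and sequenced as droplet 3′ libraries, 3 after saline (Saline 1, Saline 2 and Saline 6) and 3 after IL-27 (IL-27 4, IL-27 5 and IL-27 10). The rd10 mutation is shared by both groups, and neither an uninjected nor a wild-type retina was part of the comparison. Per the study's methods a single eye of each mouse was injected. The p-values for IL-27 against saline measure the spread among the 3 libraries of each group. Those of the fit across types rest on the sums of every type in all 6 libraries. Where effects of IL-27 in different types are compared, the p-values rest on the spread of within-library differences between the types.

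The libraries held 8968 to 9965 nuclei and 36678332 to 48260748 unique molecular identifiers (UMIs, each standing for a captured RNA molecule). After quality limits, doublet removal and naming by marker genes, 47765 nuclei of 12 marker-defined types were summed, 7534 to 8387 per library, with 28143293 to 36881731 UMIs per library. Any pair of libraries shared 18 to 30 cell barcodes, at most 0.335% of the smaller library. Xist, the RNA of the inactive X chromosome, was at 2004 CPM (UMIs per 1000000 UMIs of the same nuclei) in Saline 2 and 1976 CPM in IL-27 5 and at 0.153 to 0.461 CPM in the other 4 libraries. A cluster of 682 nuclei with high Fbln1, called here the Fbln1-high cluster, carried 5 of 6 ciliary epithelium markers and 8 of 10 Muller glia markers, and it held 231, 222 and 108 nuclei in Saline 1, 2 and 6 and 12, 6 and 103 in IL-27 4, 5 and 10. The study counted it among the Muller glia, and it was kept apart here.

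Oxidative phosphorylation makes most of the ATP of neurons. Complexes I and II pass electrons from NADH and succinate to coenzyme Q, complex III passes them to cytochrome c, complex IV reduces oxygen, and complex V, the ATP synthase, uses the proton gradient that complexes I, III and IV build. Photoreceptors have a very high energy demand and pack mitochondria into their inner segments, while Muller glia, the radial glia of the retina, rely more on glycolysis. Several complex IV subunits exist as tissue isoforms encoded by separate genes.

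The promoters of nuclear oxidative phosphorylation genes are known for binding sites of NRF1, of the ETS factor GABP and of YY1. All 86 members were found in the RefSeq gene table of build GRCm38.p6, 1 of them by a synonym, and 69 had a promoter sequence there, taken as 250 bases before and 50 bases after the gene start. These 69 members had 74 promoters, and a gene was counted if any of its promoters held the letters. GCGCATGC (NRF1) was found on either strand in 10 of the 69 members (14.5%), against 3.94% of 17492 protein-coding genes. CCGGAAG (ETS) was found in 17 (24.6%, against 12.9%) and AAGATGGCG (YY1) in 7 (10.1%, against 2.14%). At least 1 of these 3 was present in 28 members (40.6%), against 17.6% of coding genes, whereas CCAAT was about as frequent in members (43.5%) as in coding genes (42.3%). None of the searched strings contains another, a match of letters is not evidence of a bound factor, and its absence says only that these letters are not in this window.

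5 promoters are printed because the results below turn on these genes. Sdhb, the iron-sulfur subunit of complex II, was the member with an unadjusted p under 0.05 in the higher direction in Muller glia, which did not pass the adjusted threshold. Cox6b1 and Cox6b2 are the common and the alternative form of a complex IV subunit that faces the intermembrane space, and Cox7b and Cox7b2 are likewise a common form and its alternative. Each sequence is from RefSeq (GRCm38.p6), 5′ to 3′ on the strand of its gene, with capitals marking an NRF1, ETS or YY1 match. The regions are chr4:140961021-140961320 (+) for Sdhb, chr7:30626065-30626364 (-) for Cox6b1, chr7:4753045-4753344 (-) for Cox6b2, chrX:106015450-106015749 (+) for Cox7b and chr5:71548156-71548455 (-) for Cox7b2.
Sdhb: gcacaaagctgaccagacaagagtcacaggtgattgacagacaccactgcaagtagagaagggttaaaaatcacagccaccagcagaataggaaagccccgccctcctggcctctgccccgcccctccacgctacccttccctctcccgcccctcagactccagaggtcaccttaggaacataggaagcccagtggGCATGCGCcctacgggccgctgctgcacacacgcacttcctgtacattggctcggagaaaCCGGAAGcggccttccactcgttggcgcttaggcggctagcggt
Cox6b1: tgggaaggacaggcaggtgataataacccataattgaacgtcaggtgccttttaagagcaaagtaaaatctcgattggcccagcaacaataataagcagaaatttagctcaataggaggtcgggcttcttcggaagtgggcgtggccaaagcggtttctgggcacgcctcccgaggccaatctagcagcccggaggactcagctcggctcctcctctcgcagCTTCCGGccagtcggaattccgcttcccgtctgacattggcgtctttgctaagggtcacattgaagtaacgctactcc
Cox6b2: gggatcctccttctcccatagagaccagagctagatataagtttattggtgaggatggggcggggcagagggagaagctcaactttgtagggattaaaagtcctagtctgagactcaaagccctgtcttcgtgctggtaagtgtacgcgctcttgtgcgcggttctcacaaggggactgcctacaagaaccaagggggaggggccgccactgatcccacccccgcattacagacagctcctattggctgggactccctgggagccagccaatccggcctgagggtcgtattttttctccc
Cox7b: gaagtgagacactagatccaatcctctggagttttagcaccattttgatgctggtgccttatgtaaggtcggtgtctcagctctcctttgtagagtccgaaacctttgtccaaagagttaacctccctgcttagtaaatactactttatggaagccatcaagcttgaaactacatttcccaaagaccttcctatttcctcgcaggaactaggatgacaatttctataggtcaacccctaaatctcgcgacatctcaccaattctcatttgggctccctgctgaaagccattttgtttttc
Cox7b2: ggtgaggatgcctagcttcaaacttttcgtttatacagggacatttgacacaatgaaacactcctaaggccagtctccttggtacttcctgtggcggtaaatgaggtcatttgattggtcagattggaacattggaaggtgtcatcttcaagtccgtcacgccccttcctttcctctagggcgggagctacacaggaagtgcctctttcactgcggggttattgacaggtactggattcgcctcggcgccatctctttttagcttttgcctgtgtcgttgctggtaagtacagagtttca
The Sdhb promoter held an NRF1 and an ETS match (15 capital bases) and the Cox6b1 promoter an ETS match (7 capital bases). The promoters of Cox6b2, Cox7b and Cox7b2 held none of the 3, and all 5 held CCAAT, which is left in lower case.

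The first comparison asked in which retinal cell types the members were high or low. Rods had the largest share of their UMIs in member transcripts. Their mean was 7080 ± 877 CPM over the 86 members (SD, n = 6 libraries, range 5637 to 7975). Cones (4783 ± 544 CPM), microglia (4758 ± 762 CPM), endothelial cells (4698 ± 1230 CPM), the Fbln1-high cluster (4491 ± 1015 CPM) and pericytes (4182 ± 627 CPM) followed, with means within 1 SD of their neighbours in this order, although cones were above pericytes in each of the 6 libraries. Astrocytes (3133 ± 662 CPM), bipolar cells (3081 ± 375 CPM), amacrine cells (2872 ± 374 CPM), Muller glia (2621 ± 316 CPM) and retinal ganglion cells (2547 ± 366 CPM) formed a lower group, in which neighbours lay within 1 SD of each other, although bipolar cells were above amacrine cells and these above Muller glia in each of the 6 libraries. Horizontal cells were lowest, at 2096 ± 201 CPM. The Fbln1-high cluster held only 12 and 6 nuclei in IL-27 4 and IL-27 5, and both libraries entered its mean and the fit across types below.

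Counted per nucleus, the ends of the order changed places. Retinal ganglion cells held 27.7 member UMIs per nucleus and horizontal cells 21.9, while rods held 9.37 ± 1.39 (SD, n = 6), the fewest of the 12 types. The mean total per nucleus rose from 1319 UMIs in rods to 10874 in retinal ganglion cells. Over the 12 types, the member CPM had a Spearman correlation of -0.916 with the total UMIs per nucleus, 0.909 with the CPM of mitochondrially encoded RNA and 0.839 with that of ribosomal protein mRNA, given as a description because the types share libraries. Mitochondrially encoded RNA, which is not made in the nucleus, stood at 10194 CPM in rods, 7743 CPM in microglia and 1719 CPM in horizontal cells. Ribosomal protein mRNA stood at 13004 CPM in rods, 13854 CPM in microglia and 2621.5 CPM in horizontal cells, so a high share in rods was not particular to the members. How far free or cytoplasmic RNA carried into the droplets sets the member CPM of the small nuclei was not tested.

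**Figure D1:**
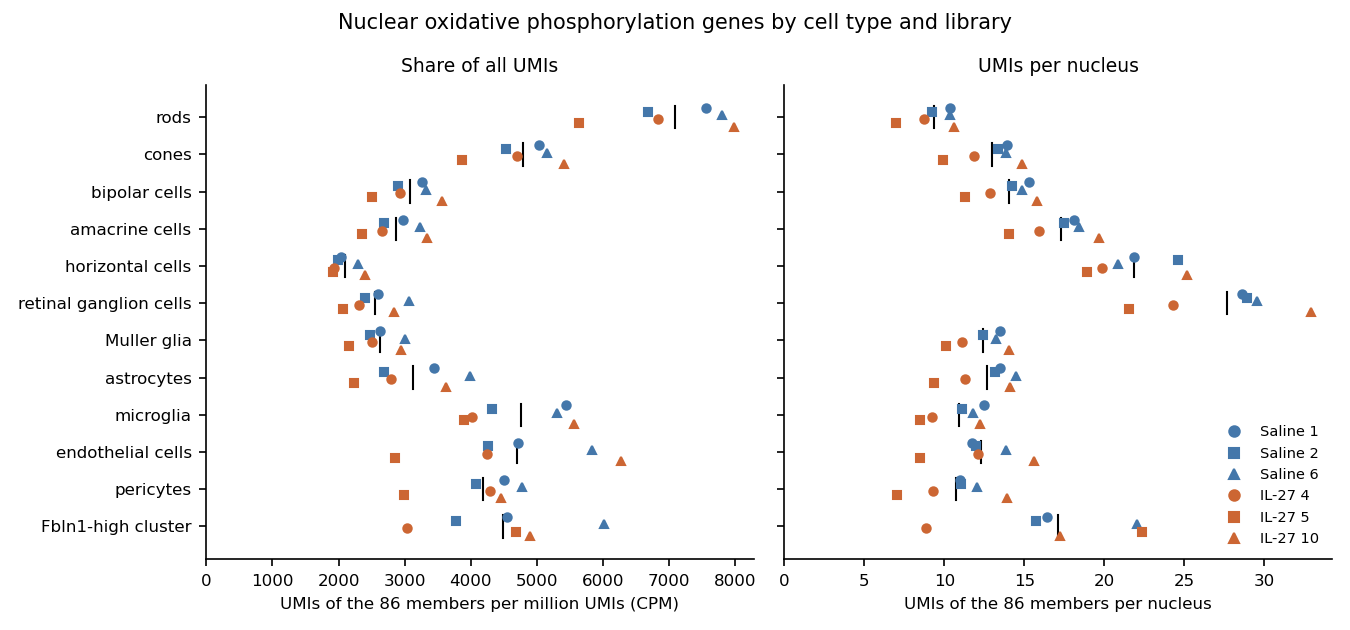
Left, summed CPM of the 86 members in each marker-defined type; right, member UMIs per nucleus. Each point is a library (saline or IL-27) and each black bar the mean of 6; rods are highest on the left and lowest on the right, where retinal ganglion cells lead with 27.7.

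In the fit of type by library sums with the library as a term, in which each type was set against the mean of the others, 81 members passed the filter on low counts and 5 did not (Cox6a2, Cox7a1, Cox7b2, Cox8b and Cox8c). In rods 78 of 81 members were higher and 0 lower at an adjusted p under 0.05 (edgeR), where 36.7% of all genes tested were called higher and 26.1% lower, and the members' median difference was 0.94 on the log2 scale. In cones 70 were higher and 0 lower (33.3% and 21.4% of all genes), with a median of 0.46. In microglia 39 were higher and 6 lower (33.3% and 24.8% of all genes). The 6 lower members, Ndufs1, Ndufs3, Ndufs4, Ndufv1, Ndufv2 and Ndufa10, were all complex I subunits. With a library left out, 3 to 6 members were lower in microglia.

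The members tended lower in inner retinal neurons and macroglia. Muller glia had 51 members lower and 4 higher (19.6% and 39.3% of all genes), retinal ganglion cells 48 lower and 6 higher (22.3% and 41.7%), horizontal cells 44 lower and 5 higher (22.1% and 27.5%) and amacrine cells 41 lower and 7 higher (21.1% and 43.3%). Their medians were -0.29, -0.31, -0.46 and -0.19 on the log2 scale. Bipolar cells lay between, with 16 higher and 9 lower (39.4% and 20.4%) and a median of 0.02. With a library left out, 3 to 10 members were lower in bipolar cells and 2 to 5 higher in horizontal cells. Astrocytes had 13 lower and 0 higher (11.9% and 17.2%), endothelial cells 6 lower and 4 higher (15.5% and 14.5%), pericytes 6 lower and 2 higher (12% and 7.65%) and the Fbln1-high cluster 1 lower and 30 higher (14.9% and 24.9%). The counts in the small types depended on the test. By limma-voom 26 were lower and 2 higher in astrocytes, 12 lower and 15 higher in endothelial cells and 25 lower and 4 higher in pericytes. In edgeR with a library left out, 3 to 6 members were lower in endothelial cells and likewise 3 to 6 in pericytes. The types were found from the same nuclei, with the members left out of the clustering genes.

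The excess in rods ran through all complexes but was smaller in complex II. The rod medians were 0.94 for complex I, 0.90 for complex III, 0.94 for complex IV and 0.95 for complex V, against 0.38 for complex II. Ndufa4, a small subunit at complex IV, was at 326.9, 280.7 and 359.2 CPM in the rods of Saline 1, 2 and 6 and at 297.0, 199.8 and 349.4 CPM in those of IL-27 4, 5 and 10. The treatment groups overlapped, and the rods were 1.39 (SE 0.0526) above the mean of the other types on the log2 scale, with an adjusted p of 1.67e-42 (edgeR). Cox4i1, the common form of the complex IV subunit that ATP regulates, was at 250.4 ± 41.4 CPM in rods (SD, n = 6), above the 142.5 ± 26.7 CPM of cones.

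Ndufs4, an accessory subunit needed for a stable complex I, did not follow the other members. It was at 204.2 ± 14.9 CPM in rods, 206.1 ± 18.0 CPM in cones, 183.4 ± 16.8 CPM in Muller glia and 136.5 ± 13.9 CPM in horizontal cells (SD, n = 6), so that its levels spanned a narrower range than the member sums. Its difference in rods was 0.07 (SE 0.0549) on the log2 scale and did not pass the test (adjusted p = 0.249, edgeR). In Muller glia, where most tested members were lower, Ndufs4 was 0.41 (SE 0.0538) higher with an adjusted p of 1.44e-10 (edgeR). Sdhb was 0.33 (SE 0.0954) higher in rods with an adjusted p of 0.00173 (edgeR), less than the rod median of all members.

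Single subunits stood far from the members' median of their type. Cox7b, a small complex IV subunit, was at 76.3, 79.9 and 88.0 CPM in the retinal ganglion cells of Saline 1, 2 and 6 and at 79.0, 78.1 and 100.2 CPM in those of IL-27 4, 5 and 10. Every library lay above the mean of Cox7b in bipolar cells (45.63 CPM) and Muller glia (41.88 CPM). Retinal ganglion cells exceeded the mean of the other types by 0.76 (SE 0.0697) on the log2 scale, with an adjusted p of 2.26e-17 (edgeR), while the median member was 0.31 lower there. Cox6a1, the common form of another complex IV subunit, was also higher in these cells, by 0.56 (SE 0.0991) with an adjusted p of 6.59e-07 (edgeR).

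In bipolar cells 2 accessory subunits stood out. Atp5mpl, a small membrane subunit of the ATP synthase, was at 62.9, 55.6 and 60.4 CPM in Saline 1, 2 and 6 and at 50.9, 51.0 and 71.3 CPM in IL-27 4, 5 and 10, against a mean of 26.68 CPM in amacrine cells. The bipolar level was 1.04 (SE 0.0673) above the mean of the other types on the log2 scale, with an adjusted p of 6.53e-26 (edgeR). Ndufv3, an accessory subunit at the NADH-binding end of complex I, was 0.93 (SE 0.0741) above it with an adjusted p of 1.34e-20 (edgeR). In horizontal cells, where the median member was lowest, Ndufa10 of complex I was at 54.8, 60.6 and 63.8 CPM after saline and at 49.2, 59.9 and 55.3 CPM after IL-27. Its difference there was 0.93 (SE 0.104) with an adjusted p of 3.97e-13 (edgeR), and in Muller glia it was 0.73 lower with an adjusted p of 3.86e-12 (edgeR).

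The isoform pairs were compared next, because an alternative subunit can replace the common one in some cells. Cox4i2, the alternative form of Cox4i1 known from lung and from oxygen-sensing cells, had its highest CPM in Muller glia among the abundant types. The 719 Cox4i2 UMIs of Muller glia gave 31.3, 27.6 and 36.8 CPM in Saline 1, 2 and 6 and 41.5, 27.5 and 38.5 CPM in IL-27 4, 5 and 10. Every Muller glia library was above the mean in rods (11.84 CPM), cones (5.877 CPM), bipolar cells (3.703 CPM), amacrine cells (2.976 CPM) and retinal ganglion cells (3.688 CPM). Cox4i2 made up 29.6 ± 3.94% of the summed Cox4i1 and Cox4i2 UMIs in Muller glia (SD, n = 6), with 30.2%, 26.8% and 25.2% after saline and 35.3%, 32.9% and 27.1% after IL-27, against 4.50% in rods, 4.15% in cones, 3.93% in bipolar cells, 3.63% in amacrine cells and 4.95% in retinal ganglion cells.

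The difference of Cox4i2 in Muller glia from the other types passed the test (adjusted p = 4.35e-40, edgeR). Its fitted size is not given because endothelial cells held 0 Cox4i2 UMIs in 225 nuclei, which makes the fold depend on the prior count. Pericytes, whose count was 11 UMIs, also passed (adjusted p = 0.000284, edgeR), with a share of 21.9%. Per 1000 nuclei, Muller glia held 160 ± 22.6 Cox4i2 UMIs (SD, n = 6), rods 15.6 and microglia 13.7. The share did not separate the treatments, since the highest saline library, 30.2%, lay above the lowest IL-27 library, 27.1%.

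**Figure D2:**
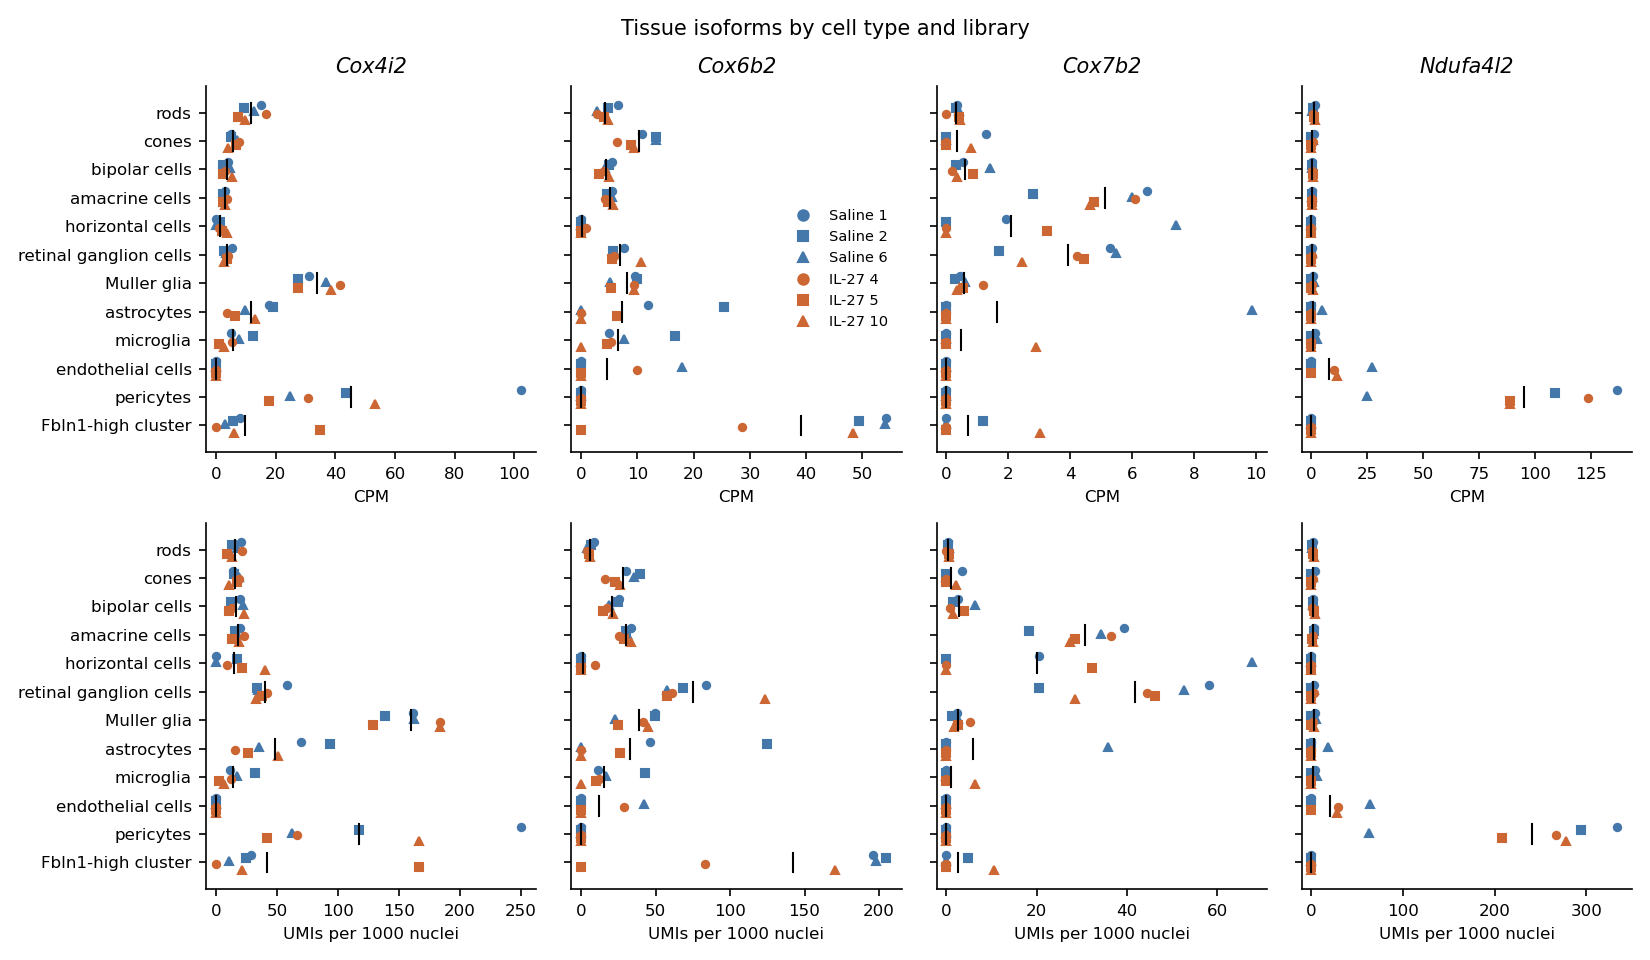
Levels of 4 alternative isoforms, Cox4i2, Cox6b2, Cox7b2 and Ndufa4l2, by marker-defined type, as CPM (upper) and as UMIs per 1000 nuclei (lower). Points are libraries and bars their means; Cox4i2 is high in Muller glia (160 per 1000 nuclei) and pericytes, Cox6b2 in the Fbln1-high cluster, Cox7b2 in amacrine, retinal ganglion and horizontal cells, and Ndufa4l2 in pericytes.

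Ndufa4l2, the low-oxygen relative of Ndufa4, had its highest CPM in pericytes, the contractile cells of small vessels. With 102 pericyte nuclei the counts were small, 4, 5 and 1 UMIs in Saline 1, 2 and 6 and 4, 5 and 5 UMIs in IL-27 4, 5 and 10. The level was 95.05 ± 39.3 CPM (SD, n = 6), against 8.016 ± 10.6 CPM in endothelial cells and less than 1 CPM in every other type. Pericytes passed the test (adjusted p = 1.54e-19, edgeR), as did endothelial cells with 5 UMIs (adjusted p = 0.000817, edgeR). Ndufa4l2 took 49.6 ± 20.0% of the summed Ndufa4 and Ndufa4l2 UMIs in pericytes and 0.55% over all types.

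Cox7b2, whose common form Cox7b has a promoter printed above, was detected in inner retinal neurons. Amacrine cells held 365 Cox7b2 UMIs, at 6.47, 2.81 and 6.0 CPM in Saline 1, 2 and 6 and at 6.08, 4.78 and 4.65 CPM in IL-27 4, 5 and 10. Retinal ganglion cells held 92 UMIs (3.926 ± 1.53 CPM; SD, n = 6) and horizontal cells 10 UMIs, whereas rods held 6 UMIs in 14442 nuclei (0.3178 CPM), so that every amacrine library was above the rod mean. Cox7b2 made up 7.80% of the summed Cox7b and Cox7b2 UMIs in amacrine cells, 4.54% in retinal ganglion cells and 0.286% in rods. It did not pass the filter of the fit across types and was not tested there.

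Cox6b2, the form of Cox6b1 known from testis, was low but present in most types. In the Fbln1-high cluster it was at 54.2, 49.3 and 54.0 CPM in Saline 1, 2 and 6 and at 28.6, 0 and 48.4 CPM in IL-27 4, 5 and 10, from 41, 42, 18, 1, 0 and 16 UMIs. IL-27 4 and IL-27 5 gave only 1 and 0 UMIs because the cluster held 12 and 6 nuclei there, so the 2 libraries carry little information on this cluster. In the saline libraries Cox6b2 made up 48.1 ± 4.74% of the summed Cox6b1 and Cox6b2 UMIs (SD, n = 3), against 20.9% in Muller glia, 20.5% in retinal ganglion cells, 15.5% in cones, 14.8% in amacrine cells, 12.8% in bipolar cells and 4.72% in rods over all libraries. The cluster passed the test (adjusted p = 1.07e-22, edgeR), as did Muller glia (adjusted p = 3.11e-05), retinal ganglion cells (adjusted p = 0.00223) and cones (adjusted p = 6.99e-05). Cox7a2l, which helps complexes III and IV associate, was 1.22 (SE 0.136) higher on the log2 scale in the Fbln1-high cluster, with an adjusted p of 4.04e-13 (edgeR).

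Other alternative forms gave few UMIs. The heart and muscle forms Cox6a2, Cox8b and Cox7a1 gave 26, 71 and 216 UMIs over all summed nuclei, and Cox8c gave 1. The 3 genes for the proton-carrying c ring of the ATP synthase encode the same mature protein, and Atp5g1, Atp5g2 and Atp5g3 took 27.7 ± 0.74%, 33.5 ± 1.33% and 38.8 ± 1.20% of their summed UMIs over all types (SD, n = 6). Atp5g1 stood at 34.1 ± 2.85% in retinal ganglion cells and 32.1 ± 2.58% in cones, and Atp5g3 at 42.0 ± 1.24% in rods. These shares are uncertain where reads fit several near-identical copies, and UMI counts carry no length correction between genes.

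The second comparison asked whether IL-27 changed the members. Over all types summed, none of the 84 members that passed the filter on low counts changed, and the 6 libraries differed among themselves more than the groups did. The members summed to 3446, 3205 and 3685 CPM in Saline 1, 2 and 6 and to 3202, 2675 and 4166 CPM in IL-27 4, 5 and 10. The lowest and the highest library were both IL-27 libraries, and the group means were 3445 ± 240 CPM after saline and 3347 ± 756 CPM after IL-27 (SD, n = 3). In summed nuclei of many types, fewer cells of a type and less RNA per cell cannot be told apart.

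Of the 84 members, 0 were called at an adjusted p under 0.05 in either direction (edgeR), where 0% of 20083 genes were called, and DESeq2 also called 0. At an unadjusted p under 0.05, 0 members were lower and 0 higher, against 1.60% and 1.32% of all genes. The groups overlapped for all 84 members, whereas they did not for 3.95% of all genes in the lower direction and 3.86% in the higher. The fitted differences were negative for 66 members and positive for 18, with a median of -0.06 on the log2 scale against 0.00 over all genes. That sign rested on single libraries, since the median was 0.09 without IL-27 5, 0.01 without Saline 6 and -0.25 without IL-27 10. The 95% interval covered 0 for all 84 and lay within 1 log2 unit of 0 on both sides for 83 and within 0.5 for 53.

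The members moved together from library to library. IL-27 5 had the lowest CPM for 77 of the 84 members and IL-27 10 the highest for 77 of the 84. Expressed as the median over members of the log2 CPM minus the gene's mean over 6 libraries, the shift was 0.03, -0.07 and 0.16 in Saline 1, 2 and 6 and -0.06, -0.35 and 0.29 in IL-27 4, 5 and 10. IL-27 5 was lowest in each of the 10 types that could be fitted, and the highest library was IL-27 10 in 6 of them, Saline 6 in 3 and Saline 1 in 1.

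**Figure D3:**
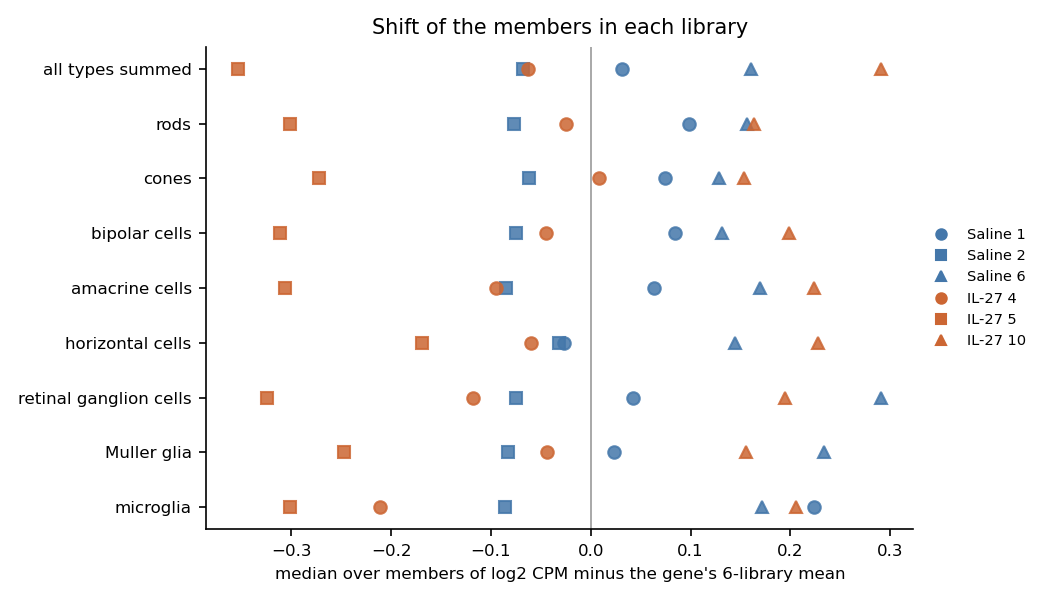
Median over members of log2 CPM minus each gene's mean over the 6 libraries, for all types summed and for 8 types; points are libraries coloured by treatment. IL-27 5 lies lowest in every group of points shown and IL-27 10 at or near the top, so the IL-27 libraries bracket the saline libraries over all types.

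Other readouts of the libraries are given beside these values. Mitochondrially encoded RNA made up 0.373%, 0.417% and 0.418% of UMIs in Saline 1, 2 and 6 and 0.322%, 0.324% and 0.514% in IL-27 4, 5 and 10. Ribosomal protein mRNA made up 0.549%, 0.508% and 0.601% after saline and 0.461%, 0.436% and 0.692% after IL-27. Both were highest in IL-27 10. Rod transcripts made up 0.139%, 0.156% and 0.128% of UMIs after saline and 0.162%, 0.0917% and 0.233% after IL-27. The nuclear RNA Malat1 made up 6.13%, 5.72% and 5.88% after saline and 5.64%, 4.35% and 6.13% after IL-27. Rod transcripts and Malat1 were both lowest in IL-27 5. The share of rod nuclei was 26.0%, 32.3% and 24.5% after saline and 33.5%, 24.7% and 42.2% after IL-27. With the types held at fixed shares the members summed to 3546, 3182 and 3801 CPM after saline and to 3176, 2772 and 3879 CPM after IL-27, so IL-27 5 remained lowest and IL-27 10 highest. The part of these in the member values was not tested.

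Complex I gave a median of -0.06 on the log2 scale, with 9 members positive and 27 negative. With a library left out its median ran from -0.24 to 0.08. Ndufs4, its most abundant member by UMI count, was at 167, 166 and 176 CPM in Saline 1, 2 and 6 and at 167, 170 and 170 CPM in IL-27 4, 5 and 10. The 6 libraries were nearly level, and the difference was -0.02 (SE 0.0674, 95% interval -0.17 to 0.14, unadjusted p = 0.814, adjusted p = 0.9997, edgeR). Ndufb10, an accessory subunit of the membrane arm, was at 26.7, 23.8 and 29.9 CPM after saline and at 21.8, 18.0 and 32.3 CPM after IL-27. It had the lowest unadjusted p of the complex, 0.372, for a difference of -0.17 (SE 0.184, adjusted p = 0.9997, edgeR), and its groups overlapped. Ndufab1, the mitochondrial acyl carrier protein, differed by -0.13 (SE 0.138, unadjusted p = 0.373, adjusted p = 0.9997, edgeR).

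Complex II is encoded by nuclear genes alone and also works in the TCA cycle. It was the complex with a positive median, 0.05, and 3 of its 4 members were positive. With a library left out its median ran from -0.03 to 0.10, so its sign rested on single libraries. Sdha, the flavoprotein that oxidizes succinate, was at 95, 95.9 and 93.7 CPM in Saline 1, 2 and 6 and at 92.1, 94.3 and 109 CPM in IL-27 4, 5 and 10. The groups overlapped, and the difference was 0.04 (SE 0.0682, 95% interval -0.12 to 0.20, adjusted p = 0.9997, edgeR). Sdhb, whose promoter is printed above, was at 22.6, 23.1 and 22.2 CPM after saline and at 23.9, 23.0 and 28.2 CPM after IL-27. IL-27 5 lay just below Saline 2, so the groups overlapped, and the difference was 0.13 (SE 0.0838, 95% interval -0.06 to 0.32, unadjusted p = 0.150, adjusted p = 0.9997, edgeR). Sdhc and Sdhd, the membrane anchors, differed by -0.07 (SE 0.0763) and 0.05 (SE 0.142). The library shift of complex II was small, from -0.07 in IL-27 4 to 0.16 in IL-27 10, and IL-27 5 stood at -0.02 for complex II while it stood between -0.39 and -0.34 for the other complexes.

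Complex III had a median of -0.07, with 3 members positive and 6 negative. With a library left out its median ran from -0.29 to 0.08. Uqcrh, the hinge protein that helps cytochrome c dock, was at 63.1, 56.6 and 64.6 CPM in Saline 1, 2 and 6 and at 53.4, 45.4 and 70.7 CPM in IL-27 4, 5 and 10. The highest and the lowest value were both IL-27 libraries, and the difference was -0.14 (SE 0.136, 95% interval -0.45 to 0.18, adjusted p = 0.9997, edgeR). Uqcr11, a small accessory subunit, was at 21.8, 21.4 and 25.8 CPM after saline and at 18.0, 14.8 and 27.9 CPM after IL-27. Its groups overlapped likewise, with a difference of -0.20 (SE 0.197, unadjusted p = 0.329, adjusted p = 0.9997, edgeR).

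Complex IV had the lowest median, -0.10, with 15 members negative and 3 positive. This too rested on single libraries, since the median ran from -0.312 to 0.085 with a library left out. Cox4i1 was at 107.6, 98.2 and 117.9 CPM in Saline 1, 2 and 6 and at 94.9, 70.1 and 138.5 CPM in IL-27 4, 5 and 10, a difference of -0.11 (SE 0.198, 95% interval -0.56 to 0.34, adjusted p = 0.9997, edgeR). Saline lay inside the range of IL-27. Cox6b2 had the smallest unadjusted p of all tested members, 0.0626, at 7.43, 7.16 and 5.71 CPM after saline and 4.85, 4.59 and 6.61 CPM after IL-27. Saline 6 fell below IL-27 10, and the difference of -0.35 (SE 0.165, 95% interval -0.73 to 0.02) had an adjusted p of 0.9997 (edgeR). Of the Cox6b2 UMIs, 118 came from the Fbln1-high cluster, whose nuclei were mostly from saline libraries, and the part of that cluster in the difference was not tested. Cox8b, a muscle form, rested on 71 UMIs and differed by -0.73 (SE 0.489, adjusted p = 0.9997, edgeR).

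Complex V was negative in all 17 members, within a narrow range of -0.13 to -0.01 and a median of -0.06. That sign rested on single libraries, since the median ran from -0.25 to 0.09 with a library left out. Atp5a1, the alpha subunit of the catalytic head, was at 84.9, 76.8 and 86.4 CPM in Saline 1, 2 and 6 and at 79.6, 67.9 and 97.4 CPM in IL-27 4, 5 and 10. The difference was -0.03 (SE 0.113, 95% interval -0.29 to 0.23, adjusted p = 0.9997, edgeR). Atp5f1, a subunit of the peripheral stalk, was at 65.7, 62.6 and 71.0 CPM after saline and at 59.9, 50.9 and 72.6 CPM after IL-27, with a difference of -0.13 (SE 0.113, adjusted p = 0.9997, edgeR). Both genes had their lowest value in IL-27 5 and their highest in IL-27 10. Since the members share their library order, a shared sign is not a count of independent changes.

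**Figure D4:**
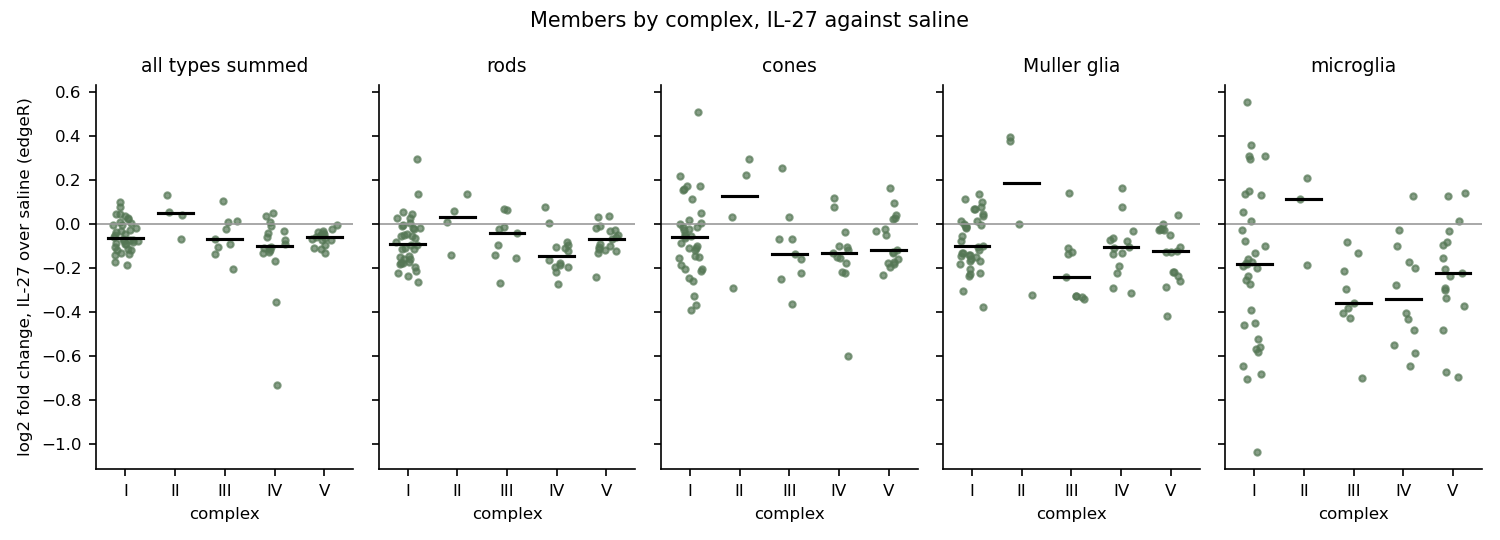
IL-27 minus saline difference (edgeR, log2) of each tested member by complex, in all types summed, rods, cones, Muller glia and microglia; points are genes and bars medians. The complex II medians lie above 0 in each panel and those of the other complexes below, and no point passed the adjusted threshold.

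In Muller glia none of 80 tested members changed at an adjusted p under 0.05 (edgeR), where 0.0369% of 13549 genes were called, and DESeq2 called 0 members too. At an unadjusted p under 0.05, 2 members were lower (1.90% of all genes) and 1 higher (3.09% of all genes). Sdhb was the higher one, at 17.2, 19.8 and 21.0 CPM in Saline 1, 2 and 6 and at 24.1, 22.4 and 28.8 CPM in IL-27 4, 5 and 10. Every IL-27 library lay above every saline library, and the difference was 0.37 (SE 0.157, 95% interval 0.03 to 0.72, unadjusted p = 0.0348, adjusted p = 0.966, edgeR). The groups did not overlap for 3 members lower and 1 higher with IL-27, against 5.53% and 4.78% of all genes.

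Atp5o, a stalk subunit of the ATP synthase, was at 27.5, 19.8 and 26.5 CPM after saline and at 18.3, 15.8 and 21.8 CPM after IL-27 in Muller glia. IL-27 10 lay above Saline 2, so the groups overlapped, and the difference was -0.42 (SE 0.180, unadjusted p = 0.0393, adjusted p = 0.966, edgeR). Sdhc was at 31.3, 27.9 and 30.1 CPM after saline and at 21.8, 22.2 and 28.1 CPM after IL-27. Here too IL-27 10 reached the saline range, and the difference was -0.32 (SE 0.146, unadjusted p = 0.0484, adjusted p = 0.966, edgeR). Of the anchors, Sdhd differed the other way, by 0.40 (SE 0.323, unadjusted p = 0.244, edgeR), so the subunits of complex II did not share a direction. Cox4i2 differed by 0.16 (SE 0.171, 95% interval -0.21 to 0.54, unadjusted p = 0.356, edgeR).

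The Muller glia median over members was -0.12, with 62 negative and 18 positive. By complex it was -0.10 in complex I, 0.19 in complex II, -0.24 in complex III, -0.11 in complex IV and -0.12 in complex V. Counting the Fbln1-high cluster with Muller glia, as the study did, moved the median to -0.19 and called 0 members, an alternative added after the data were seen. The median was -0.01 without Saline 6 and also without IL-27 5, and -0.21 without IL-27 10.

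Microglia, the resident immune cells, had a median of -0.20, with 59 of 75 tested members negative, and it ranged from -0.40 without IL-27 10 to -0.10 without IL-27 5. No member changed at an adjusted p under 0.05 (edgeR), where 0% of 8253 genes were called, and DESeq2 called 0. At an unadjusted p under 0.05, 8 members were lower (1.54% of all genes) and 0 higher (1.51%), and the groups did not overlap for 6 lower (3.76% of all genes) and 1 higher (4.57%). Atp5h, a peripheral stalk subunit, was at 116.1, 87.8 and 111.9 CPM in Saline 1, 2 and 6 and at 66.1, 52.1 and 86.9 CPM in IL-27 4, 5 and 10, from 267 UMIs. The highest IL-27 library lay just under the lowest saline library, and the difference was -0.69 (SE 0.231, 95% interval -1.18 to -0.20, unadjusted p = 0.00847, adjusted p = 0.9995, edgeR).

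Ndufa13, a complex I subunit also known as GRIM-19, was at 63.9, 77.3 and 76.3 CPM after saline and at 39.3, 39.4 and 60.8 CPM after IL-27 in microglia, from 182 UMIs. Its groups did not overlap, and the difference was -0.70 (SE 0.251, 95% interval -1.24 to -0.17, unadjusted p = 0.0129, adjusted p = 0.9995, edgeR). The other members with an unadjusted p under 0.05 were Ndufs5 (-0.65), Ndufb6 (-1.03), Cox5a (-0.64), Cox6c (-0.48), Uqcr11 (-0.70) and Atp5o (-0.67), and each had an adjusted p of 0.9995 (edgeR). In the other direction, Ndufc1 of complex I was at 32.0, 41.8 and 33.1 CPM after saline and at 51.8, 35.9 and 81.1 CPM after IL-27, and the groups overlapped (0.55, SE 0.324, unadjusted p = 0.107, edgeR). Ndufb8, another complex I subunit, differed by 0.31 (SE 0.291, unadjusted p = 0.305, edgeR).

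Transcripts that can come from outside the nucleus or from rods were counted beside the members. In microglia 72 of 83 tested ribosomal protein genes had a negative difference, with a median of -0.19, and 8 of 8 rod transcripts were negative, with a median of -0.25, while 11 of 13 mitochondrially encoded genes were negative, with a median of -0.05. In cones 8 of 8 rod transcripts were negative, with a median of -0.39, against 5 of 13 mitochondrially encoded genes (median 0.01) and 63 of 83 ribosomal protein genes (median -0.08). In Muller glia 12 of 13 mitochondrially encoded genes were negative (median -0.12), as were 59 of 83 ribosomal protein genes (median -0.06) and 5 of 8 rod transcripts (median -0.05). In rods 11 of 13 mitochondrially encoded genes were negative (median -0.07) and 68 of 83 ribosomal protein genes (median -0.06). None of these passed the adjusted threshold, and their part in the member values was not tested. The median standard error of a member was 0.292 in microglia, against 0.137 in rods and 0.174 in Muller glia, and the 95% interval lay within 0.5 log2 units of 0 for 1 of the 75 members.

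In rods, the cells that degenerate first in this strain, 0 of 80 members changed at an adjusted p under 0.05 (edgeR), where 0.00754% of 13262 genes were called, and DESeq2 called 0. At an unadjusted p under 0.05 there were 0 lower and 0 higher, against 1.55% and 1.72% of all genes, and the groups did not overlap for 0 lower and 1 higher (4.34% and 3.87% of all genes). The median was -0.09, with 64 negative and 16 positive, and it was 0.03 without IL-27 5. Ndufa9, a complex I subunit near the coenzyme Q site, was the 1 without overlap, at 32.8, 27.4 and 34.0 CPM in Saline 1, 2 and 6 and at 38.1, 34.8 and 41.1 CPM in IL-27 4, 5 and 10. All IL-27 libraries were above all saline libraries by a small margin, and the difference was 0.29 (SE 0.140, 95% interval -0.00 to 0.59, unadjusted p = 0.0528, adjusted p = 0.9999, edgeR). Ndufs3 differed by 0.13 (unadjusted p = 0.315), Uqcr10 by -0.27 (SE 0.133, unadjusted p = 0.0623) and Atp5f1 by -0.24 (SE 0.127, unadjusted p = 0.0775), each with an adjusted p of 0.9999 (edgeR).

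In cones 0 of 79 members changed at an adjusted p under 0.05 (edgeR), where 0% of 10720 genes were called, and DESeq2 called 0. At an unadjusted p under 0.05, 2 members were lower (1.96% of all genes) and 0 higher (1.73%), and the groups did not overlap for 4 lower and 0 higher (5% and 4.12% of all genes). Ndufa12, an accessory subunit of complex I, was at 79.4, 67.7 and 78.1 CPM in Saline 1, 2 and 6 and at 63.5, 56.1 and 58.5 CPM in IL-27 4, 5 and 10. The IL-27 libraries were all lower, with a difference of -0.33 (SE 0.150, unadjusted p = 0.0423, adjusted p = 0.999, edgeR). Ndufa7, also of complex I, was at 50.8, 48.7 and 44.5 CPM after saline and at 36.2, 33.9 and 41.1 CPM after IL-27. Its groups did not overlap either, with a difference of -0.37 (SE 0.172, unadjusted p = 0.0449, adjusted p = 0.999, edgeR). Sdha differed by 0.22 (unadjusted p = 0.107), Ndufs8 by 0.51 (unadjusted p = 0.119) and Cox6b2 by -0.60 (SE 0.327, unadjusted p = 0.0830), each with an adjusted p of 0.999 (edgeR), and the cone median was -0.10, or 0.02 without IL-27 5.

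The remaining fits called 0 members as well (edgeR), where 0.0068% of all genes were called in bipolar cells, 0.00594% in amacrine cells and 0% in the other 4 types. The medians were -0.07 in bipolar cells (80 members tested), -0.09 in amacrine cells (82), -0.03 in horizontal cells (64), -0.18 in retinal ganglion cells (81), -0.36 in astrocytes (13) and -0.22 in endothelial cells (9). Without IL-27 5 the medians were 0.05 in bipolar cells, 0.03 in amacrine cells and 0.07 in endothelial cells, and without Saline 6 that of horizontal cells was 0.04. With a library left out the median ran from -0.34 (without IL-27 10) to -0.07 (without Saline 6) in retinal ganglion cells and from -0.48 (without Saline 2) to -0.10 (without IL-27 5) in astrocytes. At an unadjusted p under 0.05 the lower members numbered 1 in bipolar cells (1.64% of all genes), 0 in amacrine cells (1.41%), 4 in horizontal cells (1.93%), 6 in retinal ganglion cells (1.93%), 1 in astrocytes (1.94%) and 1 in endothelial cells (1.8%). In the other direction no member was higher, against 1.69%, 1.32%, 2.91%, 1.15%, 1.71% and 1.2% of all genes in the same 6 types.

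The difference between the effects of IL-27 in 2 types was tested within libraries. Between Muller glia and rods, 0 of 80 members passed an adjusted p under 0.05 (limma), where 0% of 11944 genes did, and 1 had an unadjusted p under 0.05 (5.08% of all genes). That member was Ndufa5, with 0.35 on the log2 scale and an adjusted p of 0.946 (limma). Between microglia and rods, 0 of 75 passed (0% of 7564 genes) and 5 had an unadjusted p under 0.05 (4.75% of all genes). These were Atp5h (-0.46), Ndufa13 (-0.48) and Cox5a (-0.50) in the negative and Ndufc1 (0.71) and Ndufb8 (0.55) in the positive direction, each with an adjusted p of 0.996 (limma). The median difference of effects over members was 0.02 for Muller glia and -0.04 for microglia.

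Of the 12 isoform shares computed over all types, 11 overlapped between the treatments, and that of Cox7a2l in the sum of Cox7a2 and Cox7a2l, named after its values were seen, did not. It was 40.6%, 40.5% and 41.8% in Saline 1, 2 and 6 and 39.4%, 39.2% and 39.0% in IL-27 4, 5 and 10. The saline libraries were all higher, by a small amount. In single types the treatments overlapped for this share in rods, cones, bipolar cells, horizontal cells, retinal ganglion cells, Muller glia and astrocytes, the saline libraries were all higher in amacrine cells and microglia, and they were all lower in endothelial cells. No share was tested, and the smallest p that an exact permutation test of 3 against 3 libraries can give is 0.1.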

How the data were processed

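Per the labels and the study's methods, nuclei were isolated with the 10x Genomics Chromium kit and sequenced as 3′ libraries. The deposited matrices hold UMI counts, which the authors had made with Cell Ranger and not normalized. The submitters' processing notes name Cell Ranger 9.0.1 and Seurat 5.2.1, while the matrix headers name 8.0.1, and the genome build is not given in the sources used here.

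A barcode was kept (56205 of 56634) if its UMIs exceeded 500, its genes numbered 200 or more and mitochondrially encoded RNA was under 5%. Doublets were scored with Scrublet at an expected rate of 8%, and the highest-scoring nuclei of each library, 3992 in all, were removed. The nuclei left were clustered in scanpy 1.11.5 (2000 variable genes without the members, 25 components, 20 neighbours, resolution 0.25). Clusters were named where at least 3 markers of a class were detected in 10% of their nuclei, and 1 rule for horizontal cells and 1 for mixed clusters were added after the clusters were seen. A further 149 mixed and 993 unnamed nuclei stayed out. Nuclei beyond 2 scaled median absolute deviations of the log total of their type and library were trimmed, and UMIs were summed per library and type.

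Sums were fitted with edgeR 4.0.16 (TMM, filterByExpr at 10 counts, quasi-likelihood test) on all genes in R 4.3.3, with Benjamini-Hochberg adjustment over all genes tested and a threshold of 0.05. CPM are the summed UMIs per 1000000 UMIs of the same nuclei. Differences of effects between types used limma 3.58.1 on log2 CPM with a prior count of 2, and DESeq2 1.42.0 was an alternative. Horizontal, astrocyte and vascular fits rest on few nuclei. The members, marker and gene lists were chosen with earlier results of these data known. Named members were the most abundant and the 2 with the smallest unadjusted p of each complex over all types, the isoform groups, complex II, and in Muller glia, microglia, rods and cones the 2 with the smallest p in each direction. Members that stand far from their type's median were named after their values were seen. On simulated counts 200 genes were changed by 1.5 on the log2 scale. The tests recovered 175 for all types summed (17 false calls, 19881 genes), 181 in rods (9 false, 13071 genes) and 173 in cones (10 false, 10485 genes). They recovered 179 in Muller glia (11 false, 13350 genes) and 151 in microglia (12 false, 7912 genes). The simulation drew each gene independently, without a shift shared by the members of a library. Its change of 1.5 was larger than the member medians with IL-27, so it gives no recovery rate for changes of their size.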

Additional observations from a re-analysis of the deposited data

How the results depend on the processing

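No paired analysis was run. Per the study's methods each mouse received either IL-27 or saline in a single eye, and its other eye was left uninjected. The labels name no pairs of libraries. Of 549 values recomputed under the alternatives, 22 moved by more than the tolerance used here. The tolerance was 1 SD between libraries for a median and 1.5 times for a count. In all types summed that SD was 0.242, against a median of -0.06, so a change of sign could stay within the tolerance. The 158 recomputed counts of members called with IL-27, which are among the 549, were all 0. These included DESeq2, other scalings, other filters, other limits on nuclei, covariates and each library left out. The median over members in all types summed was -0.07 with DESeq2, -0.05 with library totals, -0.02 with the mitochondrially encoded share as a covariate, -0.08 with Xist as a covariate, -0.13 without rods, -0.11 at fixed composition and -0.05 without the Fbln1-high cluster. With a library left out it ran from -0.25 to 0.09, and the cause was not tested. In the fit across types, limma-voom called 1 member lower in rods and 1 in cones, where edgeR called 0 in each, and it called more in astrocytes, endothelial cells and pericytes (26 against 13 lower, 15 against 4 higher and 25 against 6 lower) but not in horizontal cells (42 against 44 lower) or the Fbln1-high cluster (23 against 30 higher). With a library left out, 77 to 79 members were higher in rods, 67 to 70 in cones and 31 to 40 in microglia, and 41 to 63 were lower in Muller glia. With 3 libraries a group, the median standard error of a member was 0.160 over all types and 0.292 in microglia, and 1 of 75 microglial members had an interval within 0.5 of 0, so small differences were not detectable there.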

Other observations

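Other gene lists of the mitochondrion were counted in the same fit over all types summed. Of the complex I assembly factors, which are not part of the finished enzyme, 7 of 15 tested had a positive and 8 a negative difference with IL-27, with a median of -0.01 on the log2 scale. The assembly factors of complexes II to V gave 14 positive and 18 negative (median -0.01), the electron carriers and coenzyme Q synthesis genes 8 positive and 4 negative (median 0.04), the regulators of mitochondrial biogenesis 5 positive and 9 negative (median -0.03) and the TCA cycle enzymes 5 positive and 9 negative (median -0.04). The 13 mitochondrially encoded genes gave 3 positive and 10 negative (median -0.05) and 84 ribosomal protein genes 10 positive and 74 negative (median -0.08). None of these genes was called at an adjusted p under 0.05 by edgeR, and none had an unadjusted p under 0.05 in this fit.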
